A study of Mus musculus with 37 samples.

Results

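The 7 genes described here form the route by which prolactin and growth hormone act on a cell: the receptor genes Prlr and Ghr, the kinase gene Jak2, the transcription factor genes Stat5a and Stat5b, and the feedback genes Socs2 and Cish. They were chosen by symbol, and all 7 were found among the 52636 genes of the count tables. The 37 RNA-seq libraries come from mouse mammary glands, of which mature luminal cells were taken by flow cytometry. In every group the mice were 8 weeks old, had lost their ovaries to surgery and carried pellets for 8 days. The mice differed in Esr1, the gene of estrogen receptor alpha, as D542G, Y541S or WT. The groups were D542G E2, D542G P4, D542G E2+P4, D542G placebo, Y541S E2, Y541S P4, Y541S E2+P4, Y541S placebo, WT E2, WT P4, WT E2+P4 and WT placebo, with 4 libraries in WT P4 and 3 in each of the other 11. E2 and P4 are the usual short names of estradiol and progesterone. The labels used here give no strain, number of mutant alleles or dose, and do not say whether a library came from 1 animal or a pool, so a p-value measures the spread between these libraries.

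Prolactin binds a receptor that has no enzyme of its own. The kinase Jak2, held on the receptor's inner part, then phosphorylates Stat5a and Stat5b, which move to the nucleus and bind DNA. In the mammary gland Stat5a drives the growth of alveoli in pregnancy and the transcription of milk protein genes. Growth hormone uses the same kinase and transcription factors through Ghr. Socs2 and Cish are transcribed in response to Stat5 and their proteins damp signalling at the receptor, so their RNA is widely read as a trace of Stat5 activity. RNA counts do not measure phosphorylated Stat5 or hormone in the blood.

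Levels are given as CPM, the counts of a gene scaled to 1 common library size with edgeR's TMM factors, and are not compared between genes, since they are not per length. Differences are log2 fold changes ± SE from edgeR's quasi-likelihood test over 18426 genes. "Called" stands for an adjusted p under 0.05, after Benjamini-Hochberg correction over all the genes tested in a comparison. Total counts per library ran from 25694701 to 52244504. All 13 markers of hormone-sensing luminal cells were counted in all 37 libraries, with a summed level of 13310 to 39860 CPM, and sums for fibroblast markers reached 4399 CPM, in Y541S placebo. Esr1 averaged 171 ± 25.9 CPM in D542G placebo, 82.1 ± 25.1 CPM in Y541S placebo and 688 ± 129.7 CPM in WT placebo (SD, n = 3 each), and the counts do not separate mutant from WT transcripts. Library 5 of Y541S placebo stood apart from the rest of its group in Prlr, Socs2 and Cish. Changes of the 7 genes that use it and were called are therefore given with and without it, as are some uncalled ones. Library 5 is 1 of 3 libraries left out together in 1 alternative fit (with WT placebo 2 and WT P4 2), called here the 3 libraries that stand apart. No numeric rule set that choice, and other libraries, such as D542G P4 2, also differed from their groups. Library 5 is also 1 of 3 whose identifiers belong to a later series (with WT P4 4 and WT P4 5). Where a call depended on other single libraries, they are named with the log2 value without them.

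The genes lie on 5 chromosomes of GRCm38. Prlr (ENSMUSG00000005268) and Ghr (ENSMUSG00000055737) are both on chromosome 15, at 10177238 to 10349180 on the plus strand and at 3317760 to 3583492 on the minus strand. Jak2 (ENSMUSG00000024789) is on chromosome 19 at 29251828 to 29313080, plus strand. Stat5b (ENSMUSG00000020919), at 100780731 to 100850724 on the minus strand, and Stat5a (ENSMUSG00000004043), at 100859351 to 100885169 on the plus strand, stand head to head on chromosome 11 with 8626 bases between them. Socs2 (ENSMUSG00000020027) is on chromosome 10 at 95385362 to 95417180, minus strand, and Cish (ENSMUSG00000032578) on chromosome 9 at 107296026 to 107302784, plus strand. Other annotated genes cover 38.85% of the span of Cish and 13.84% of that of Prlr, and whether reads were counted by strand is not given in the sources used here. Stat5a and Stat5b are close copies, so reads may be divided between them, and counts per gene do not separate the long and short forms of the Prlr receptor.

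Stat5 proteins bind DNA at the letters TTCNNNGAA, which read the same on both strands. RefSeq promoter windows, 250 bases before to 50 after a start, were at hand for 6 of the 7 genes, 11 windows in all (build GRCm38.p6). The letters occurred in 2 of these 11 windows, and in 2726 of 32851 windows of all genes (8.3%). The windows of Cish and Prlr are shown because they are the 2 that hold a match, in capitals at the match and printed to 30 bases after the start. The Cish window holds 2 matches, which begin at bases 1 and 12 counted from its RefSeq start (chr9:107296409-107296688, plus strand). This window lies inside the span of Cish given above, downstream of the first base of that span. The window of a second Prlr start holds 1 match, 110 bases before that start (chr15:10223656-10223935, plus strand).
Cish: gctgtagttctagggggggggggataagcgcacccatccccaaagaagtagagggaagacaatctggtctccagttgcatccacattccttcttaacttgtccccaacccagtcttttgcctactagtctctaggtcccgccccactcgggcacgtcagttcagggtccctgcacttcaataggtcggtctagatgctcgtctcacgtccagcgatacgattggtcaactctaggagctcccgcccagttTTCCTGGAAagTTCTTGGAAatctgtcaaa
Prlr: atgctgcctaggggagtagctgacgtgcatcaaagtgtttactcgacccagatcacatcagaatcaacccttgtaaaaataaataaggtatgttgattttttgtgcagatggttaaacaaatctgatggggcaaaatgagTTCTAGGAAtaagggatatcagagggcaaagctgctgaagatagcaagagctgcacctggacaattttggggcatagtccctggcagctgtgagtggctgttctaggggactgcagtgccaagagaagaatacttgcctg
The full estrogen response element, GGTCA and TGACC with 3 bases between them, was in 0 of the 11 windows and in 0.07% of all windows. The progesterone receptor letters ACA and TGTNC with 3 bases between them were in 0 of the 11 and in 3.11% of all. A match in letters is not evidence of binding, and sites further away were not searched.

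**Figure D1:**
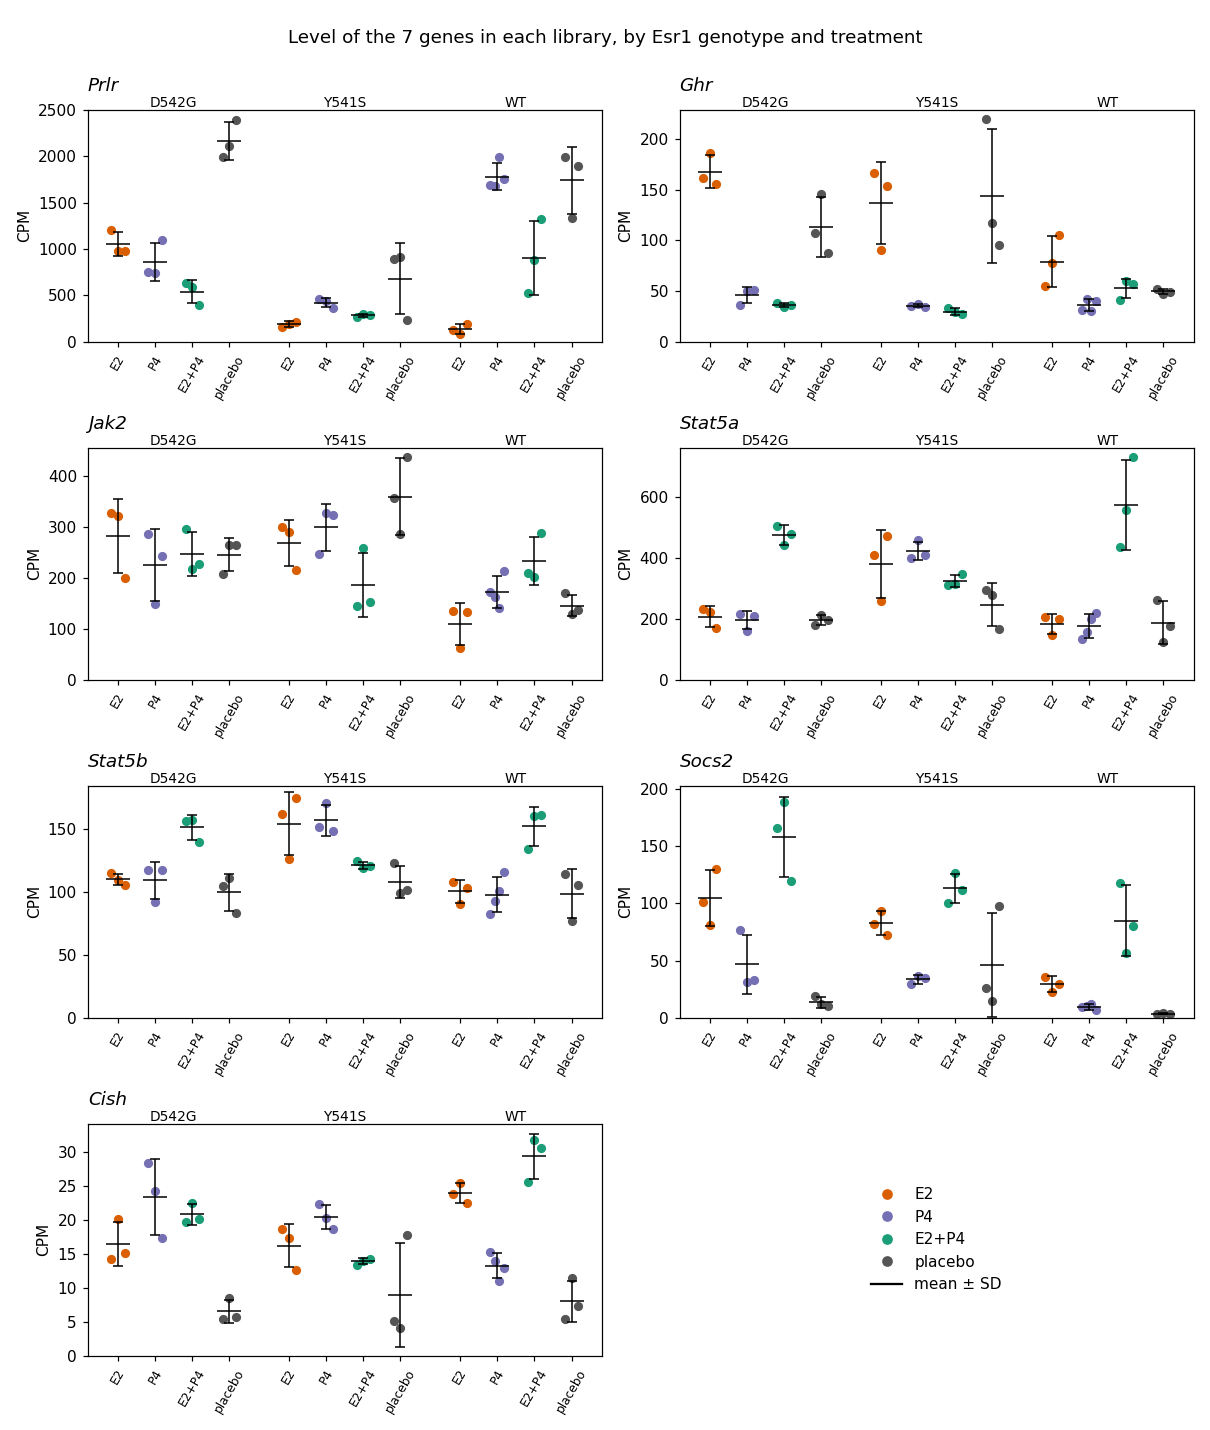
Level of each gene in CPM (linear axis from 0) in every library, by Esr1 genotype and treatment; points are libraries, and the line and bars are the mean ± SD of the group. Prlr is low in all 3 WT E2 libraries (89.6 to 194 CPM) and 979 to 1205 CPM in D542G E2, and 1 Y541S placebo library is low in Prlr (239.5 CPM) and high in Socs2 (98.01 CPM).

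In cells with WT Esr1, E2 lowered the receptor gene Prlr and raised both feedback genes, P4 alone gave no called change in any of the 7 genes, and the combination kept Prlr nearer to placebo while it raised Stat5a, Stat5b, Socs2 and Cish together. In D542G cells the loss of Prlr with E2 was smaller, and P4 alone lowered Prlr and Ghr and raised Socs2 and Cish. Between D542G and WT, however, 0 of the 7 P4 responses were called different in edgeR's main fit, where 3.35% of all genes were called. In Y541S cells on placebo Prlr was already lower, and Socs2, Ghr and Jak2 were already higher, than in WT cells on placebo. Stat5a was called higher than placebo in WT E2+P4, D542G E2+P4 and Y541S P4.

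Against the placebo group of their genotype, the 7 genes had 2 higher and 1 lower in D542G E2, where 15.7% of all tested genes were called, 2 higher and 2 lower in D542G P4 (18.4% of all genes) and 4 higher and 2 lower in D542G E2+P4 (25.4%). They had 1 higher and 1 lower in Y541S E2 (4.65% of all genes), 3 higher and 1 lower in Y541S P4 (11.3%) and 1 higher and 3 lower in Y541S E2+P4 (18.5%). They had 3 higher and 1 lower in WT E2 (31.5%) and 4 higher and 1 lower in WT E2+P4 (23.4%). In WT P4, 0 of 7 were called by edgeR, against 1.43% of all genes (2556 genes at an unadjusted p under 0.05), and 1 of 7, Socs2, by DESeq2. The groups share their placebo libraries within a genotype, so these counts are not independent.

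**Figure D2:**
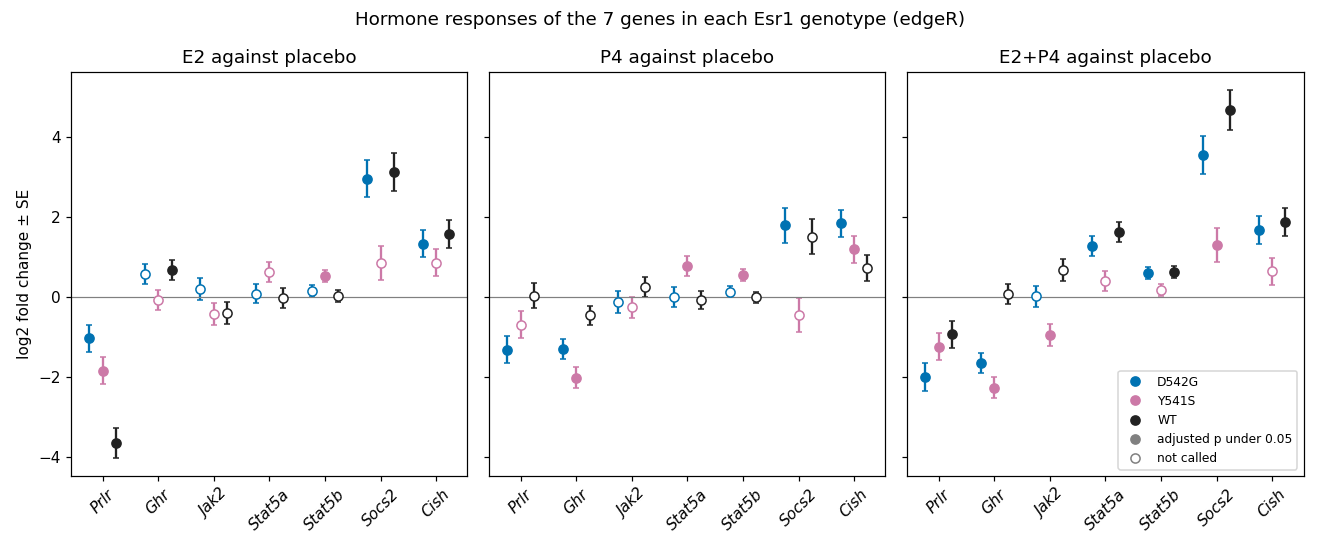
Log2 fold change ± SE (edgeR) of each gene for E2, P4 and E2+P4 against the placebo group of the same genotype; filled points have an adjusted p under 0.05 over all genes. Prlr lies below 0 with E2 in all 3 genotypes, furthest in WT (-3.65), and Socs2 is highest with E2+P4 in WT (4.66).

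Prlr encodes the prolactin receptor. In WT cells it had 132, 89.6 and 194 CPM in the E2 libraries and 1991, 1331 and 1902 CPM in the placebo libraries. The 2 groups lay far apart, and the difference was -3.65 ± 0.37 log2, adjusted p = 3.43e-08. With P4 alone the level was 1693, 1678, 1994 and 1755 CPM, within the range of placebo apart from the highest library, and no change was called (0.031 ± 0.31 log2, adjusted p = 0.986; 95% interval -0.60 to 0.67). With E2+P4 Prlr had 526, 879 and 1320 CPM, below all placebo libraries and above all E2 libraries. It was lower than in placebo (-0.94 ± 0.33 log2, adjusted p = 0.0397), lower than in WT P4 (-0.97 ± 0.32 log2, adjusted p = 0.0257) and higher than in WT E2 (2.71 ± 0.35 log2, adjusted p = 2.37e-06). The E2+P4 value was thus 2.68 ± 0.46 log2 above the sum of the single responses (adjusted p = 2.60e-04). The call against placebo was lost without WT placebo 1 (-0.83) or 3 (-0.87) or WT E2+P4 1 (-0.66) or 2 (-0.92), with no low-count filter (-0.94) and with only the groups compared in the fit (-0.96), and that against P4 without WT E2+P4 1 (-0.69) or 2 (-0.95) or WT P4 4 (-0.91). In bulk RNA a lower level cannot be told apart from fewer cells that make the transcript.

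Beside the fall of Prlr in WT E2, 8 of the 13 hormone-sensing markers were lower and 2 higher, with a summed level of 16970 to 27100 CPM in WT E2 and 18300 to 24950 CPM in WT placebo. Of 10 tested progenitor and alveolar markers 6 were higher and 0 lower, with sums of 9152 to 32920 CPM and 3760 to 4434 CPM. Of 8 tested leukocyte markers 4 were higher, with sums of 65.7 to 204 CPM and 7.21 to 9.78 CPM. Ms4a1, Itgam and, of the alveolar list, Csn3 were at 0 in all libraries. Whether a 0 in every library reflects absent RNA or a gene left uncounted was not tested. Of all tested genes, 31.5% were called in WT E2. The part of these markers in the fall of Prlr in WT E2 was not tested.

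In D542G cells Prlr had 1205, 981 and 979 CPM with E2, 758, 738 and 1101 CPM with P4, 633, 589 and 398 CPM with E2+P4 and 1992, 2112 and 2390 CPM with placebo. Every hormone library was below every placebo library. The change was -1.04 ± 0.33 log2, adjusted p = 0.0322 with E2, -1.32 ± 0.34 log2, adjusted p = 0.00676 with P4 and -2.003 ± 0.34 log2, adjusted p = 7.16e-05 with E2+P4. The E2 call was lost without D542G placebo 1 (-1.09), 2 (-1.06) or 3 (-0.96) or D542G E2 2 (-0.99) or 3 (-0.99). The E2 response differed from that of WT cells by 2.62 ± 0.47 log2, adjusted p = 6.40e-04, a smaller fall in D542G, in a comparison where the 7 genes had 1 call and 9.23% of all genes were called. The P4 response of Prlr in D542G was lower than in WT by a margin that was not called (-1.35 ± 0.46 log2, adjusted p = 0.0972), nor was the difference for E2+P4 (-1.06 ± 0.47 log2, adjusted p = 0.218). Only with the groups compared in the fit was the P4 difference called (-1.35).

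Beside these falls in D542G, the summed level of hormone-sensing markers was 36510 to 39860 CPM with E2, 15030 to 19140 CPM with P4, 13310 to 15210 CPM with E2+P4 and 22810 to 26250 CPM with placebo. Of the 13 markers, 4 higher and 3 lower were called with E2, 1 higher and 3 lower with P4 and 1 higher and 8 lower with E2+P4. The progenitor and alveolar sums were 1647 to 3321 CPM with E2, 3807 to 11060 CPM with P4, 3491 to 5682 CPM with E2+P4 and 1725 to 3345 CPM with placebo. Of 10 tested markers, 0 higher and 1 lower were called with E2, 5 higher and 0 lower with P4 and 5 higher and 0 lower with E2+P4. Of all tested genes, 15.7% were called with E2, 18.4% with P4 and 25.4% with E2+P4 in D542G. The part of these markers in the falls of Prlr was not tested.

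In Y541S cells Prlr had 155, 196 and 216 CPM with E2, 458, 436 and 366 CPM with P4, 272, 300.3 and 291 CPM with E2+P4 and 889, 914 and 239.5 CPM with placebo, the last of these being library 5. That library lay between the E2 and the E2+P4 libraries. Prlr was lower with E2 (-1.85 ± 0.34 log2, adjusted p = 0.00164; -2.25 ± 0.28 without library 5) and with E2+P4 (-1.24 ± 0.34 log2, adjusted p = 0.00956; -1.65 ± 0.28 without library 5). With P4 no change was called (-0.70 ± 0.33 log2, adjusted p = 0.191), but without library 5 the fall was -1.10 ± 0.28 and was called. The E2 call was lost with only the groups compared in the fit (-1.88), and the E2+P4 call without Y541S placebo 2 (-1.001) or 3 (-0.97) and with only the groups compared in the fit (-1.27). The fall with E2 was smaller than in WT cells by 1.80 ± 0.47 log2, adjusted p = 0.016 (1.40 ± 0.38 without library 5), and this call was lost without WT E2 2 (1.57) and with only the groups compared in the fit (1.78). For E2+P4 no difference from WT was called (-0.30 ± 0.47 log2, adjusted p = 0.768; 95% interval -1.26 to 0.66; -0.71 ± 0.38 without library 5). Fibroblast marker sums were 939 to 1259 CPM in Y541S E2, 497 to 703 in P4 and 235 to 615.5 in E2+P4. In Y541S placebo they were 1417 (library 5) to 4399 CPM. Hormone-sensing sums were 21590 to 25510 CPM, 19000 to 21120, 15590 to 18270 and 21770 to 25980 in the same order. The part of cell make-up in the Prlr values of Y541S was not tested.

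On placebo, Prlr was lower in Y541S than in WT (-1.35 ± 0.34 log2, adjusted p = 0.00638; -0.95 ± 0.29 without library 5) and lower in Y541S than in D542G (-1.67 ± 0.34 log2, adjusted p = 0.00171; -1.26 ± 0.29 without library 5). Both calls were lost with only the groups compared in the fit (-1.34 and -1.65). All 3 D542G placebo libraries were above the 3 WT placebo libraries, the lowest of them by a small margin, and the difference was not called (0.31 ± 0.33 log2, adjusted p = 0.817). In the order of the 12 group means, Prlr was lowest in WT E2 (139 ± 52.5 CPM), then Y541S E2 (189 ± 31.3), Y541S E2+P4 (288 ± 14.5), Y541S P4 (420.3 ± 47.9), D542G E2+P4 (540 ± 125), Y541S placebo (681 ± 382), D542G P4 (866 ± 204), WT E2+P4 (908 ± 398), D542G E2 (1055 ± 130.1), WT placebo (1741 ± 358), WT P4 (1780 ± 146; n = 4) and D542G placebo (2165 ± 204; SD, n = 3 in the others). The highest mean was 15.6 times the lowest. Of 11 neighbouring pairs in this order 3 did not overlap: Y541S E2+P4 over Y541S E2, Y541S P4 over Y541S E2+P4, and WT placebo over D542G E2.

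Ghr encodes the growth hormone receptor, which shares its fold and its kinase with the prolactin receptor. P4 and E2+P4 lowered it in both mutants, and both mutants had more of it on placebo than WT cells. In D542G cells Ghr had 36.8, 50.2 and 51.1 CPM with P4, 37.9, 34.4 and 36.2 CPM with E2+P4 and 108, 145 and 87.3 CPM with placebo. Every P4 and E2+P4 library was below every placebo library, a change of -1.30 ± 0.26 log2, adjusted p = 8.16e-04 with P4 and -1.65 ± 0.26 log2, adjusted p = 2.35e-05 with E2+P4. With E2 it had 162, 186 and 156 CPM, above all placebo libraries, and no change was called. In Y541S cells Ghr had 35.3, 36.9 and 34.3 CPM with P4, 33.1, 29.2 and 27.3 CPM with E2+P4 and 219, 118 and 94.99 CPM with placebo. The groups did not overlap, and the change was -2.02 ± 0.26 log2, adjusted p = 1.19e-05 with P4 (-2.25 ± 0.26 without library 5) and -2.27 ± 0.26 log2, adjusted p = 1.26e-06 with E2+P4 (-2.49 ± 0.26 without library 5). Y541S E2, with 166, 90.6 and 153 CPM, overlapped placebo.

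In WT cells the only called change of Ghr was a rise with E2, to 54.9, 77.3 and 105 CPM in WT E2, against 52.4, 47.5 and 49.3 CPM in WT placebo (0.67 ± 0.25 log2, adjusted p = 0.0432). That call was lost without WT placebo 1 (0.71), 2 (0.64) or 3 (0.66) or WT E2 2 (0.69) or 3 (0.41), with no low-count filter (0.67), without the 3 libraries that stand apart (0.64) and with only the groups compared in the fit (0.63). WT P4 had 30.98, 42.6, 30.8 and 40.6 CPM, below all placebo libraries, but the difference was not called (-0.46 ± 0.23 log2, adjusted p = 0.391). WT E2+P4 had 41.7, 59.5 and 56.8 CPM, around the placebo level. The mutants' responses were set against these. The E2+P4 response differed from that of WT by -1.73 ± 0.36 log2, adjusted p = 0.00484 in D542G, the 1 call among the 7 genes there (4.30% of all genes), and by -2.35 ± 0.36 log2, adjusted p = 7.88e-05 in Y541S (-2.58 ± 0.35 without library 5). The P4 response in Y541S differed from that of WT by -1.56 ± 0.35 log2, adjusted p = 0.00647 (-1.79 ± 0.34 without library 5). The P4 response in D542G was not called different from that of WT.

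The placebo levels of Ghr differed between genotypes. Ghr was higher in D542G placebo than in WT placebo by 1.19 ± 0.25 log2, adjusted p = 0.00874, where the 7 genes had 2 calls higher and 2.02% of all genes were called. It was higher in Y541S placebo than in WT placebo by 1.53 ± 0.26 log2, adjusted p = 1.11e-04 (1.76 ± 0.26 without library 5), where the 7 had 3 higher and 1 lower and 13.4% of all genes were called. Without library 5, 5 of the 7 were called in that comparison, among them Prlr, Ghr, Jak2 and Socs2, the 4 called with it. The added call is not described here. Fits that left out 1 library called 1487 to 2422 of all genes there, and the main fit 2469. The D542G call was lost without WT placebo 2 (1.16) or D542G placebo 2 (0.97). In P4-treated cells the levels were close across genotypes, with means of 46.02 ± 8.04 CPM in D542G P4, 35.5 ± 1.34 CPM in Y541S P4 and 36.3 ± 6.25 CPM in WT P4 (SD, n = 3, 3 and 4). Fibroblasts also transcribe Ghr. Fibroblast marker sums were 1417 to 4399 CPM in Y541S placebo and 42.7 to 312 CPM in WT placebo, with 4 of 9 markers higher and 0 lower. They were 261 to 932 CPM in D542G placebo, with 0 of 9 called against WT placebo. In D542G they were 63.99 to 388 CPM with P4 (4 of 9 markers higher and 1 lower than in placebo) and 160.1 to 522 CPM with E2+P4 (5 higher and 0 lower). In Y541S 0 were higher, and 1 was lower with P4 and 2 with E2+P4. Of all tested genes, 18.4 and 25.4% were called in D542G P4 and E2+P4, and 11.3 and 18.5% in Y541S P4 and E2+P4. The part of fibroblasts in the Ghr result was not tested.

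Jak2 encodes the kinase of both receptors. No hormone gave a called change of Jak2 in D542G cells, where it had 327, 320.2 and 198 CPM with E2, 286, 148 and 242 CPM with P4, 295, 216 and 227 CPM with E2+P4 and 207, 263 and 263 CPM with placebo. All 3 hormone groups overlapped placebo. In Y541S cells it was lower with E2+P4, with 145, 258 and 153 CPM against 356, 285 and 436 CPM in Y541S placebo (-0.95 ± 0.27 log2, adjusted p = 0.0149). The call was lost without Y541S E2+P4 1 (-0.80) or 3 (-0.83) or Y541S placebo 5 (-0.79), without the 3 libraries of the later identifier series (-0.79), without the 3 libraries that stand apart (-0.79) and with only the groups compared in the fit (-0.99). In WT cells E2 and E2+P4 had 134, 62.3 and 132 CPM and 209, 202 and 288 CPM, against 169, 129.8 and 136 CPM in WT placebo. E2+P4 lay above all placebo libraries but was not called (0.68 ± 0.27 log2, adjusted p = 0.0713), except with only the groups compared in the fit (0.66). E2+P4 was higher than E2 by 1.09 ± 0.28 log2, adjusted p = 0.00555, lost without WT E2 2 (0.80) and with only the groups compared in the fit (1.12). The E2+P4 response in Y541S differed from that in WT by -1.63 ± 0.39 log2, adjusted p = 0.00699 (-1.47 ± 0.40 without library 5), and this call was lost without the 3 libraries that stand apart (-1.39). On placebo Jak2 was higher in Y541S than in WT by 1.30 ± 0.28 log2, adjusted p = 0.00156 (1.14 ± 0.30 without library 5), with no overlap. In D542G placebo it was above WT placebo in every library, but not called (0.75 ± 0.27 log2, adjusted p = 0.203), again except with only the groups compared (0.73).

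Stat5a and Stat5b encode the transcription factors, and their RNA levels moved together, with a Pearson r of 0.921 for log2 CPM over the 37 libraries. That r is a description over libraries that fall into shared groups. Stat5a had 437, 556 and 732 CPM in WT E2+P4 and 263, 123 and 175 CPM in WT placebo. Every E2+P4 library was above every placebo library, and the rise was 1.62 ± 0.25 log2, adjusted p = 1.90e-05. Neither hormone alone did this in WT cells: Stat5a had 206, 146 and 200.4 CPM with E2 (-0.022 ± 0.25 log2, adjusted p = 0.965; 95% interval -0.53 to 0.48) and 133, 156, 199.5 and 218 CPM with P4. E2+P4 was above P4 by 1.70 ± 0.23 log2, adjusted p = 2.52e-06 and above E2 by 1.64 ± 0.25 log2, adjusted p = 2.71e-05. In these 2 comparisons the 7 genes had 4 higher and 1 lower against P4 (23.2% of all genes called) and 5 higher and 0 lower against E2 (18.5%). Stat5a exceeded the sum of the single responses by 1.72 ± 0.34 log2, adjusted p = 0.00103. Together with Prlr and Stat5b it was 1 of 3 genes above the sum, where 11.4% of all genes were called.

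Stat5b followed in smaller steps. It had 134, 160.3 and 161 CPM in WT E2+P4 and 114, 76.3 and 105 CPM in WT placebo, a rise of 0.63 ± 0.15 log2, adjusted p = 0.00214. It was 0.64 ± 0.14 log2 above P4 (adjusted p = 8.94e-04), 0.60 ± 0.15 log2 above E2 (adjusted p = 0.00421) and 0.61 ± 0.20 log2 above the sum of the single responses (adjusted p = 0.0452). The call above E2 was lost with only the groups compared in the fit (0.63). The call above the sum was lost without WT placebo 1 (0.49) or 3 (0.56), WT E2 2 (0.54) or 3 (0.63), WT P4 2 (0.54) or 3 (0.59) or WT E2+P4 2 (0.57) or 3 (0.56), with no low-count filter (0.60) and with only the groups compared in the fit (0.62).

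In D542G cells E2+P4 raised both genes too. Stat5a had 505, 441 and 477 CPM in D542G E2+P4 and 179, 211 and 198 CPM in D542G placebo (1.28 ± 0.25 log2, adjusted p = 3.55e-04). Stat5b had 156, 157 and 139.6 CPM and 104, 111 and 83.2 CPM in the same groups (0.60 ± 0.15 log2, adjusted p = 0.00285). Neither gene overlapped placebo. With E2 or P4 alone Stat5a averaged 208 ± 33.7 CPM and 196 ± 30.7 CPM, against 196 ± 16.3 CPM in placebo (SD, n = 3 each), with no call. The E2+P4 response of Stat5a was not called different from that of WT (-0.34 ± 0.35 log2, adjusted p = 0.676; 95% interval -1.06 to 0.37).

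In Y541S cells Stat5a had 410.4, 258 and 473 CPM with E2, 399.8, 458 and 411 CPM with P4, 311, 314 and 348 CPM with E2+P4 and 294, 279.9 and 166 CPM with placebo. P4 and E2+P4 lay above all placebo libraries. P4 was called (0.78 ± 0.25 log2, adjusted p = 0.0392), and E2 (0.63 ± 0.25 log2, adjusted p = 0.163) and E2+P4 (0.40 ± 0.25 log2, adjusted p = 0.285) were not. Without library 5 the values were 0.41 ± 0.26 with E2 and 0.18 ± 0.26 with E2+P4. The P4 call was lost without Y541S placebo 3 (0.88) or 5 (0.56) or Y541S P4 1 (0.82), 2 (0.72) or 3 (0.80), with RLE size factors (0.72), with no low-count filter (0.78), without the 3 libraries of the later identifier series (0.56), without the 3 libraries that stand apart (0.56) and with only the groups compared in the fit (0.74). Stat5b was higher with E2 (0.51 ± 0.15 log2, adjusted p = 0.0391) and with P4 (0.54 ± 0.15 log2, adjusted p = 0.0156). Those calls were lost without Y541S placebo 3 (0.46) or 5 (0.48) or Y541S E2 1 (0.48) or 3 (0.42), with RLE size factors (0.48), with no low-count filter (0.54), without the 3 libraries of the later identifier series (0.47), with Stat5a and Stat5b summed (0.59) and with only the groups compared in the fit (0.47) for E2, and without Y541S placebo 3 (0.48) or 5 (0.50) or Y541S P4 2 (0.47) and with only the groups compared in the fit (0.50) for P4. The E2 and P4 responses of both genes in Y541S, and the E2+P4 response of Stat5b, were not called different from those in WT. The E2+P4 response of Stat5a differed from that in WT by -1.22 ± 0.35 log2, adjusted p = 0.0258 (-1.44 ± 0.34 without library 5), and this call was lost without WT placebo 2 (-0.99) or 3 (-1.18), WT E2+P4 3 (-1.010), Y541S placebo 2 (-1.08) or 3 (-1.12) or Y541S E2+P4 1 (-1.19) or 2 (-1.20) and with only the groups compared in the fit (-1.22).

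Socs2, a suppressor of cytokine signalling best known for limiting growth hormone action, had the widest range of the 7 genes. Its highest group mean was 47.1 times its lowest. In WT cells it had 36.05, 22.3 and 29.7 CPM with E2, 9.48, 10.2, 12.01 and 6.46 CPM with P4, 118, 56.7 and 80.5 CPM with E2+P4 and 3.37, 3.81 and 2.89 CPM with placebo. No hormone library reached down to the placebo level. The rise was 3.13 ± 0.47 log2, adjusted p = 9.89e-06 with E2 and 4.66 ± 0.50 log2, adjusted p = 7.44e-08 with E2+P4. With P4 it was 1.504 ± 0.43 log2, adjusted p = 0.076 and not called, although the groups did not overlap. DESeq2 called it (1.49), as did the fits with only the groups compared (1.51), without the later identifier series (1.55) and without the 3 libraries that stand apart (1.61). E2+P4 exceeded P4 by 3.16 ± 0.42 log2, adjusted p = 1.64e-06 and E2 by 1.53 ± 0.43 log2, adjusted p = 0.013, the second lost without WT E2 2 (1.37) or WT E2+P4 1 (1.22). Against the sum of the single responses Socs2 had no call.

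In D542G cells Socs2 had 102, 81.6 and 130.5 CPM with E2, 76.4, 31.3 and 32.7 CPM with P4, 166, 189 and 119.5 CPM with E2+P4 and 19.01, 11.6 and 9.98 CPM with placebo. All hormone libraries were above all placebo libraries. The rise was 2.95 ± 0.46 log2, adjusted p = 4.36e-05 with E2, 1.79 ± 0.44 log2, adjusted p = 0.00541 with P4 and 3.55 ± 0.47 log2, adjusted p = 2.71e-06 with E2+P4. The P4 call was lost without D542G P4 1 (1.24). The rises with E2 (-0.18 ± 0.61 log2, adjusted p = 0.926) and E2+P4 (-1.11 ± 0.61 log2, adjusted p = 0.353) were not called different from those of WT cells, with 95% intervals of -1.44 to 1.08 and -2.38 to 0.15. The P4 response was not called different from that of WT cells either.

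In Y541S cells Socs2 had 82.3, 93.2 and 72.2 CPM with E2, 29.1, 36.2 and 35.1 CPM with P4, 101, 127 and 112 CPM with E2+P4 and 25.7, 14.8 and 98.01 CPM with placebo. Placebo library 5, the last value, was close below the E2+P4 libraries and above all E2 and P4 libraries. Socs2 was called higher with E2+P4 (1.30 ± 0.43 log2, adjusted p = 0.0356), and not with E2 (0.84 ± 0.43 log2, adjusted p = 0.315) or P4 (-0.46 ± 0.43 log2, adjusted p = 0.557). Without library 5 the values were 2.48 ± 0.38 with E2+P4, 2.03 ± 0.38 with E2 and 0.73 ± 0.35 with P4, and the first and second were called. The E2+P4 call was lost without Y541S placebo 2 (1.009) or 3 (0.88) or Y541S E2+P4 1 (1.38), 2 (1.21) or 3 (1.30), with no low-count filter (1.30) and with only the groups compared in the fit (1.25). The responses differed from those in WT by -2.29 ± 0.62 log2, adjusted p = 0.0202 for E2, -1.96 ± 0.60 log2, adjusted p = 0.0454 for P4 and -3.37 ± 0.63 log2, adjusted p = 7.44e-04 for E2+P4. Without library 5 they were -1.10 ± 0.47, -0.78 ± 0.46 and -2.18 ± 0.47, of which the E2+P4 difference alone was called. In those comparisons the 7 genes had 1 higher and 1 lower for E2 (8.02% of all genes), 0 higher and 2 lower for P4 (7.33%) and 0 higher and 4 lower for E2+P4 (8.68%). The E2 call was lost without WT placebo 3 (-2.19), Y541S E2 3 (-2.20) or Y541S placebo 5 (-1.10), without the 3 libraries of the later identifier series (-1.08), without the 3 libraries that stand apart (-1.20) and with only the groups compared in the fit (-2.33), and the P4 call without WT placebo 1 (-1.97), 2 (-2.06) or 3 (-1.87), WT P4 2 (-1.97), 3 (-1.93) or 4 (-1.84), Y541S P4 1 (-1.87), 2 (-2.02) or 3 (-2.001) or Y541S placebo 5 (-0.78), with no low-count filter (-1.97), without the 3 libraries of the later identifier series (-0.82), without the 3 libraries that stand apart (-0.88) and with only the groups compared in the fit (-1.96).

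Both mutants had more Socs2 than WT cells in the absence of added hormone. Socs2 was higher in D542G placebo than in WT placebo by 2.01 ± 0.46 log2, adjusted p = 0.0145, with every D542G library above every WT library. It was higher in Y541S placebo than in WT placebo by 3.78 ± 0.48 log2, adjusted p = 2.98e-06 (2.59 ± 0.36 without library 5), again with no overlap. The D542G call was lost without WT placebo 1 (2.02), 2 (2.11) or 3 (1.92) or D542G placebo 1 (1.69). Y541S placebo exceeded D542G placebo by 1.77 ± 0.44 log2, adjusted p = 0.00909, but by 0.58 ± 0.35 and without a call when library 5 was left out. That call was lost without D542G placebo 2 (1.66) or 3 (1.59) or Y541S placebo 5 (0.58), without the 3 libraries of the later identifier series (0.59), without the 3 libraries that stand apart (0.58) and with only the groups compared in the fit (1.82). The 7 genes had 1 higher and 1 lower between the mutants' placebo groups, where 11.9% of all genes were called. In the order of group means Socs2 ran from D542G E2+P4 (158 ± 35.4 CPM) through Y541S E2+P4 (113 ± 12.98), D542G E2 (104 ± 24.6), WT E2+P4 (84.97 ± 30.8), Y541S E2 (82.5 ± 10.5), D542G P4 (46.8 ± 25.6), Y541S placebo (46.2 ± 45.2), Y541S P4 (33.5 ± 3.81), WT E2 (29.4 ± 6.87), D542G placebo (13.5 ± 4.81) and WT P4 (9.53 ± 2.31; n = 4) to WT placebo (3.35 ± 0.457; SD, n = 3 in the others). Of the 11 neighbouring pairs 2 did not overlap, WT E2 over D542G placebo and WT P4 over WT placebo.

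Cish, the first member of the same feedback family to be described, was on placebo near one level in all genotypes apart from Y541S library 5. It had 5.41, 8.51 and 5.72 CPM in D542G placebo, 5.12, 4.06 and 17.8 CPM in Y541S placebo and 5.48, 11.4 and 7.33 CPM in WT placebo. There was no call between these groups with library 5 kept. In D542G cells it had 14.2, 20.2 and 15.1 CPM with E2, 28.5, 24.3 and 17.4 CPM with P4 and 19.8, 22.6 and 20.2 CPM with E2+P4. Each of these libraries was above every D542G placebo library, and the rise was 1.33 ± 0.34 log2, adjusted p = 0.00708 with E2, 1.84 ± 0.34 log2, adjusted p = 5.33e-04 with P4 and 1.67 ± 0.34 log2, adjusted p = 6.10e-04 with E2+P4.

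In WT cells Cish had 23.9, 25.5 and 22.6 CPM with E2, 15.3, 13.9, 11.1 and 12.9 CPM with P4 and 25.6, 31.8 and 30.7 CPM with E2+P4. E2 and E2+P4 were above all placebo libraries, with a rise of 1.57 ± 0.34 log2, adjusted p = 8.03e-04 and of 1.86 ± 0.35 log2, adjusted p = 1.82e-04. P4 overlapped placebo by 1 library and was not called (0.72 ± 0.32 log2, adjusted p = 0.298), except without the 3 libraries that stand apart (0.98). E2+P4 exceeded P4 by 1.14 ± 0.31 log2, adjusted p = 0.00765. The P4 response in D542G was larger than in WT by a margin that was not called (1.11 ± 0.46 log2, adjusted p = 0.187). That comparison, of P4 responses between D542G and WT, had 0 calls among the 7 genes by edgeR and 0 by DESeq2, with 3.35% of all genes called and 3294 at an unadjusted p under 0.05.

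In Y541S cells Cish had 18.7, 17.4 and 12.6 CPM with E2, 22.4, 20.3 and 18.7 CPM with P4 and 13.4, 14.03 and 14.3 CPM with E2+P4. Against placebo the rise was called with P4 (1.19 ± 0.34 log2, adjusted p = 0.0218) and not with E2 (0.85 ± 0.34 log2, adjusted p = 0.164) or E2+P4 (0.63 ± 0.34 log2, adjusted p = 0.204). Without library 5 all 3 were called, at 1.82 ± 0.26 with E2, 2.15 ± 0.27 with P4 and 1.60 ± 0.26 with E2+P4. With library 5 kept, the P4 call was lost without Y541S placebo 2 (0.91) or 3 (0.84) or Y541S P4 1 (1.12) or 2 (1.20) and with only the groups compared in the fit (1.14). The E2+P4 response in Y541S was not called different from WT (-1.23 ± 0.48 log2, adjusted p = 0.109; -0.26 ± 0.33 without library 5). It was called without Y541S placebo 2 (-1.51) and without Y541S placebo 3 (-1.58).

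**Figure D3:**
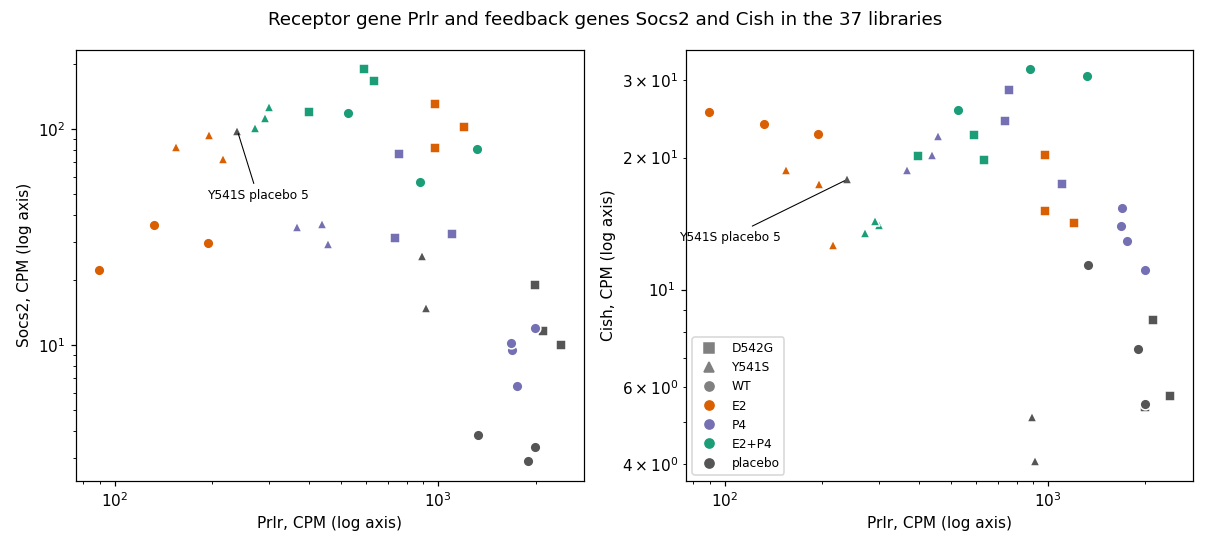
Socs2 (left) and Cish (right) against Prlr, in CPM on log axes, with 1 point for each of the 37 libraries; shape gives the Esr1 genotype and colour the treatment. All E2 and E2+P4 libraries lie at lower Prlr and higher Socs2 than the 3 WT placebo libraries, and so does Y541S placebo 5 (239.5 CPM Prlr, 98.01 CPM Socs2).

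Socs2 and Cish did not run parallel to the RNA of the receptor. Over the 37 libraries the Pearson r of log2 CPM was -0.548 between Prlr and Socs2, -0.493 between Prlr and Cish and 0.568 between Socs2 and Cish. These values describe libraries that fall into treatment groups and carry no p. In WT E2, Prlr was at its lowest group mean, while Cish (23.97 ± 1.45 CPM) was second to WT E2+P4 (29.4 ± 3.28 CPM; SD, n = 3 each). The genes whose log2 CPM followed Prlr most closely over the 37 libraries, among 10330 genes whose log2 CPM averaged 2 or more, were Pxylp1 (r = 0.958), Rin2 (0.948), Entpd3 (0.938), Dnaic1 (0.937) and Lcp1 (0.936). For Socs2 they were Gpat4 (0.914), Smox (0.894), Igfals (0.894), Dkk3 (0.891) and Pdia5 (0.891). For Cish they were Sptlc2 (0.793), the nonagouti gene a (0.792), Plscr1 (0.787), Echdc2 (0.785) and Chka (0.784).

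Almost no RNA of the hormones themselves was counted. Prl had 1 count and Gh 18 counts in all 37 libraries together, and neither gene was tested.

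Of 16 other negative regulators of cytokine signalling, Socs3, the inhibitor induced by Stat3, was called lower in 9 of 11 comparisons, those of the 9 hormone groups with placebo and of the mutants' placebo groups with WT placebo. It had the smallest p of the list in 7 of the 11. Socs3 changed by -1.79 ± 0.31 log2 with E2 and -2.02 ± 0.31 with E2+P4 in D542G, by -1.37 ± 0.30 with E2 and -2.07 ± 0.31 with E2+P4 in Y541S, and by -3.98 ± 0.33 with E2 and -2.80 ± 0.32 with E2+P4 in WT (adjusted p = 1.37e-04, 1.70e-05, 0.00737, 3.49e-05, 2.40e-09 and 1.75e-07). It averaged 159 ± 25.3 CPM in WT E2 and 2503 ± 459 CPM in WT placebo (SD, n = 3 each), the group where Socs2 and Cish rose. Socs3 was also lower in Y541S placebo than in WT placebo (-2.90 ± 0.32 log2, adjusted p = 3.08e-07). Socs1 had the smallest p in D542G placebo against WT placebo (-1.57 ± 0.32 log2, adjusted p = 0.00633), the phosphatase gene Ptpn1 in D542G P4 (-0.95 ± 0.22 log2, adjusted p = 0.0036) and Ptpn2 in WT P4 (0.85 ± 0.16 log2, adjusted p = 0.00608).

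In the list of 16, 2 were higher and 1 lower in D542G E2, 0 and 2 in D542G P4, 0 and 5 in D542G E2+P4, 0 and 1 in Y541S E2, 0 and 0 in Y541S P4, 1 and 2 in Y541S E2+P4, 3 and 6 in WT E2, 1 and 1 in WT P4 and 2 and 6 in WT E2+P4. The share of all tested genes called was, in the same order, 15.7, 18.4, 25.4, 4.65, 11.3, 18.5, 31.5, 1.43 and 23.4%. The medians of the list lay between -0.28 and 0.23 log2, beside -0.04 to 0.06 for all genes. The Socs3 call in Y541S E2 was lost without Y541S E2 1 (-1.32) and with only the groups compared in the fit (-1.41). The Socs1 call was lost without WT placebo 1 (-1.36) or D542G placebo 3 (-1.32), and that of Ptpn2 without WT placebo 1 (0.81) or 3 (0.74).

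**Figure D4:**
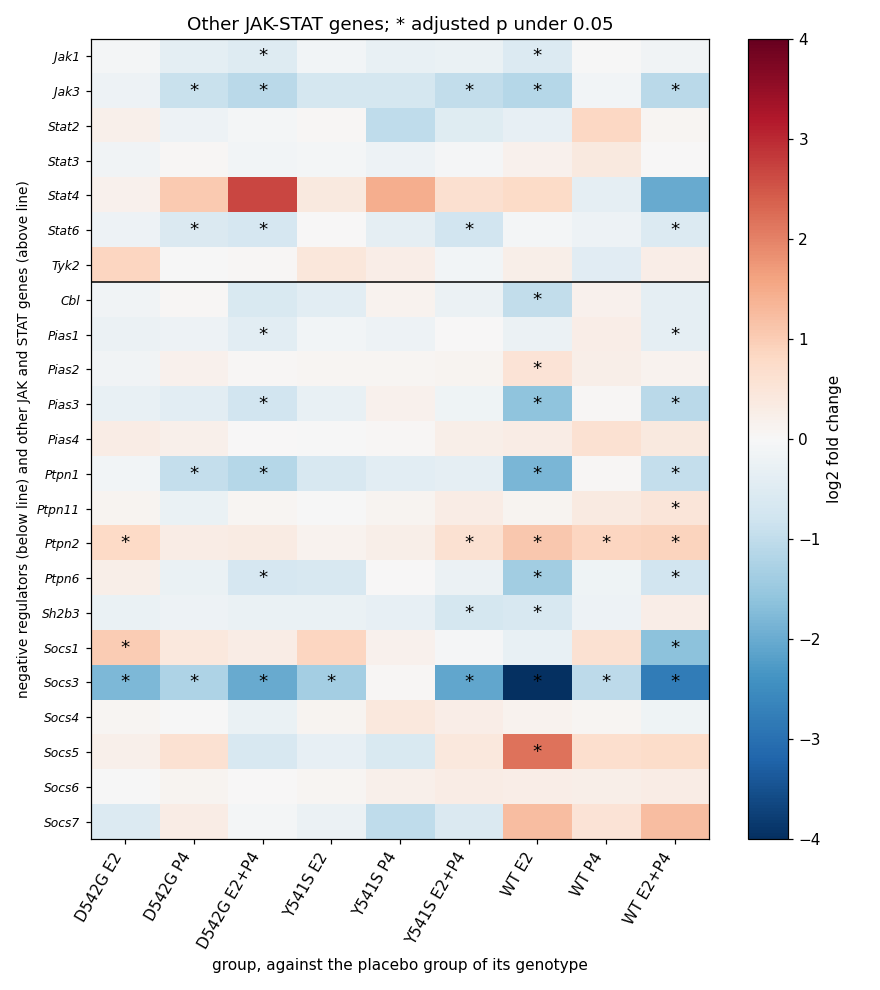
Log2 fold changes (edgeR) of 7 other JAK and STAT genes (above the line) and of 16 negative regulators (below it), for E2, P4 and E2+P4 in each genotype, relative to its own placebo libraries; stars mark an adjusted p under 0.05 over all genes. Socs3 is starred in 8 of 9 columns, each time lower, and none of the 7 JAK and STAT genes is starred higher.

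None of 7 other JAK and STAT genes was called higher with a hormone in edgeR's test. They had 0, 2 and 3 lower with E2, P4 and E2+P4 in D542G, 0, 0 and 2 in Y541S, and 2, 0 and 2 in WT. Of all tested genes, 15.7, 18.4 and 25.4% were called in D542G, 4.65, 11.3 and 18.5% in Y541S, and 31.5, 1.43 and 23.4% in WT. Stat6, which serves interleukin 4, changed by -0.58 ± 0.14 log2 with P4 and -0.66 ± 0.14 with E2+P4 in D542G, by -0.77 ± 0.14 with E2+P4 in Y541S and by -0.55 ± 0.14 with E2+P4 in WT (adjusted p = 0.00346, 6.16e-04, 2.16e-04 and 0.00333). The kinase gene Jak3 changed by -1.13 ± 0.29 log2, adjusted p = 0.00368 in WT E2. Both genes are named only in groups where they had the smallest p of the 7. Jak3 also lay below every placebo library of its genotype in 4 other groups. These were WT E2+P4 (30.7, 44.9 and 42.9 CPM), D542G P4 (45.9, 28.05 and 69), D542G E2+P4 (40.9, 42.3 and 42.5) and Y541S E2+P4 (33.8, 30.6 and 42.8). The medians of the 7 lay between -0.31 and 0.005 log2. The Jak3 call was lost with only the groups compared in the fit (-1.17).

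Other receptors of the same class I family moved in both directions. Il4ra, of the interleukin 4 receptor, averaged 884 ± 200.1 CPM in D542G E2 and 70.9 ± 2.05 CPM in D542G placebo (3.64 ± 0.35 log2, adjusted p = 4.57e-08). It averaged 417 ± 236 CPM in WT E2, 493 ± 127 CPM in WT E2+P4 and 50.9 ± 2.14 CPM in WT placebo (3.04 ± 0.34 log2, adjusted p = 1.43e-07 and 3.28 ± 0.34 log2, adjusted p = 3.90e-08). It was also higher in Y541S placebo than in WT placebo (2.68 ± 0.33 log2, adjusted p = 1.83e-06). Lepr, the leptin receptor gene, rose in D542G P4 (2.69 ± 0.47 log2, adjusted p = 2.90e-04; 3.52 ± 0.52 without D542G placebo 1) and Y541S E2+P4 (1.85 ± 0.46 log2, adjusted p = 0.00522) and fell in Y541S E2 (-1.82 ± 0.46 log2, adjusted p = 0.0199). These are only the groups where Lepr had the smallest p of its list. It had 130, 136 and 81.3 CPM in D542G E2 and 99.2, 50.3 and 67.7 CPM in D542G E2+P4. D542G P4 had 38.6, 29.9 and 60 CPM, and D542G placebo 12.5, 3.20 and 4.24 CPM. Y541S P4, with 78.3, 78.7 and 76.9 CPM, was above Y541S placebo, with 28.02, 22.98 and 20.5 CPM. Osmr, of the oncostatin M receptor, fell in D542G E2+P4 (-1.95 ± 0.24 log2, adjusted p = 1.01e-06) and Y541S P4 (-1.64 ± 0.24 log2, adjusted p = 4.98e-05). It too is named only where it had the smallest p. D542G E2 (81.4, 78.4 and 71.2 CPM) and D542G P4 (56.6, 70.9 and 65.9) also lay below D542G placebo (119, 98 and 99.1). WT E2+P4 (79.6, 107.5 and 96.8 CPM) lay below WT placebo (145, 156.5 and 134.2). WT P4 (195.5, 263.5, 219.6 and 280.3 CPM) lay above WT placebo. Of the 12 tested receptors on this list, 2 were higher and 1 lower in D542G E2, 2 and 3 in D542G P4, 3 and 3 in D542G E2+P4, 0 and 1 in Y541S E2, 2 and 1 in Y541S P4, 2 and 2 in Y541S E2+P4, 1 and 5 in WT E2, 0 and 0 in WT P4 and 3 and 2 in WT E2+P4. The share of all tested genes called was, in the same order, 15.7, 18.4, 25.4, 4.65, 11.3, 18.5, 31.5, 1.43 and 23.4%. The medians of the list lay between -0.42 and 0.49 log2. The Lepr call in Y541S E2 was lost without Y541S placebo 2 (-1.68) or 3 (-1.84) or Y541S E2 1 (-1.60) or 3 (-1.93) and with only the groups compared in the fit (-1.85).

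Genes known in mammary epithelium as targets or effectors of prolactin and Stat5 moved in both directions. Of the 19 tested, 2 were higher and 1 lower in D542G E2, 6 and 1 in D542G P4, 7 and 3 in D542G E2+P4, 2 and 2 in Y541S E2, 1 and 6 in Y541S P4, 1 and 6 in Y541S E2+P4, 6 and 2 in WT E2, 1 and 1 in WT P4 and 5 and 5 in WT E2+P4. The share of all tested genes called was, in the same order, 15.7, 18.4, 25.4, 4.65, 11.3, 18.5, 31.5, 1.43 and 23.4%. No list was tested as a set. The medians of this list lay between -1.30 and 1.39 log2. Tnfsf11, which encodes RANKL, the paracrine signal of progesterone, was low on placebo in every genotype. It was far more abundant in D542G P4, D542G E2+P4 and Y541S E2+P4. It averaged 907 ± 221 CPM in D542G P4, 426 ± 96.03 CPM in D542G E2+P4 and 0.134 ± 0.0457 CPM in D542G placebo. In Y541S it averaged 206 ± 7.95 CPM with E2+P4 and 1.53 ± 1.61 CPM with placebo, and in WT 16.2 ± 16.8 CPM with P4 (n = 4) and 0.231 ± 0.111 CPM with placebo (SD, n = 3 otherwise). All 4 differences were called (adjusted p = 1.14e-05, 4.05e-06, 2.34e-04 and 0.0198), the WT one being lost without WT placebo 1 (5.77), 2 (6.29) or 3 (6.37) or WT P4 3 (5.16).

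Mfge8, a gene of the milk fat globule, averaged 7129 ± 2751 CPM in WT E2 and 1125 ± 177 CPM in WT placebo (2.66 ± 0.31 log2, adjusted p = 3.13e-07). Lalba, which encodes alpha-lactalbumin, had 75.7, 21.8 and 12.97 CPM in Y541S E2 and 1.23, 0.838 and 5.79 CPM in Y541S placebo (3.82 ± 0.90 log2, adjusted p = 0.0114; 5.16 ± 1.07 without placebo library 5), a call that was lost without Y541S placebo 2 (3.48) or 3 (3.40) or Y541S E2 1 (2.74) and with only the groups compared in the fit (3.78). Bcl6, a repressor that Stat5 is known to down-regulate, rose in D542G E2 (1.08 ± 0.22 log2, adjusted p = 7.63e-04) and fell in Y541S P4 (-1.40 ± 0.22 log2, adjusted p = 1.10e-04). Id2, an inhibitor of DNA binding needed for alveoli, was lower in WT E2+P4 than in WT placebo (-2.04 ± 0.31 log2, adjusted p = 1.24e-05), and lower in both mutants on placebo than in WT cells on placebo (-2.15 ± 0.31 and -2.03 ± 0.31 log2, adjusted p = 1.90e-04 and 3.23e-05). Mfge8, Lalba, Elf5, Csn2, Csn3 and Wap are on the progenitor and alveolar marker list as well, of which 5 of 10 were higher in D542G P4 and in D542G E2+P4, and 3 of 10 lower in Y541S P4 and in Y541S E2+P4. Of all tested genes, 18.4, 25.4, 11.3 and 18.5% were called in those comparisons, in that order. The part of cell make-up in the changes of these target genes was not tested.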

How the data were processed

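RNA was measured in 37 libraries of sorted mouse mature luminal mammary cells. The authors deposited 1 table per library with a whole-number read count per gene, per the file headers, besides a gene width in bases and an RPKM value, which were not used for tests. GRCm38 is named in the submitters' processing notes, while how reads were aligned and counted, and whether by strand, is not given in the sources used here. Groups came from the labels. Gene names and positions came from GENCODE M21 on GRCm38, and promoters from RefSeq on GRCm38.p6.

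The deposited counts were filtered with edgeR's filterByExpr, leaving 18426 genes, and scaled by TMM (factors 0.767 to 1.169). One model of 12 group means was fitted with edgeR 4.0.16 (R 4.3.3, limma 3.58.1; common biological coefficient of variation 0.458, 25 residual degrees of freedom) and tested by quasi-likelihood F tests with Benjamini-Hochberg adjustment over all tested genes. CPM is the count over the TMM-scaled total of tested genes. The SE is the size of the log2 fold change divided by the square root of F. Total counts had a median of 41260533 per library, and replicates of a group differed beyond sampling noise in all 39 pairs (chi-square per degree of freedom 23.31 to 313.29). D542G P4 2 had 280.5 and 220.89 against libraries 1 and 3 of its group. WT placebo 2 had 108.16 and 91.58 against libraries 1 and 3 of its own.

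Alternatives were RLE size factors, no low-count filter, DESeq2 1.42.0, a replicate block, fits of only the groups compared, Stat5a and Stat5b summed, and fits without each library, without 3 libraries that stand apart or without 3 of a later identifier series. Named were the 7 genes, Esr1, of each list in each comparison with placebo the called gene with the smallest p (the rule allowed up to 3), and the 5 genes most correlated with Prlr, Socs2 and Cish. Results of 1 gene of the JAK and STAT list are not reported here. The members and lists were chosen with earlier results of these data known.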

Additional observations from a re-analysis of the deposited data

Results flagged for a closer look

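Hormone responses of 5 of the 7 genes differed between a mutant and WT in edgeR's interaction test over all genes. For the E2, P4 and E2+P4 responses, 9.23, 3.35 and 4.30% of all tested genes were called in D542G. In Y541S the shares were 8.02, 7.33 and 8.68%. For Prlr, the E2 response differed from that of WT by 2.62 ± 0.47 log2 in D542G and by 1.80 ± 0.47 log2 in Y541S, a smaller fall in each mutant. For Ghr, the E2+P4 response differed by -1.73 ± 0.36 in D542G and -2.35 ± 0.36 in Y541S, and the P4 response by -1.56 ± 0.35 in Y541S. For Jak2 and Stat5a, the E2+P4 response in Y541S differed by -1.63 ± 0.39 and -1.22 ± 0.35. For Socs2, the responses in Y541S differed by -2.29 ± 0.62 for E2, -1.96 ± 0.60 for P4 and -3.37 ± 0.63 for E2+P4. Without Y541S placebo 5 the Socs2 values were -1.10 ± 0.47, -0.78 ± 0.46 and -2.18 ± 0.47, and the first and second were no longer called. Over the fits that left out 1 library, the Stat5a call was lost in 7 of 12 and the Y541S Prlr call in 1 of 12. The Socs2 calls were lost in 3 of 12 for E2 and in 10 of 13 for P4. Losses in the other alternative fits are given above. All these tests share the WT placebo libraries, and those of 1 mutant share its placebo libraries. Each group has 3 or 4 libraries, so a gap of 1 library from its group could be tested only in WT P4, and none of the 7 genes showed one there.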

How the results depend on the processing

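Of 121 fold changes given above, 98 were called, and 64 of these kept their call and sign in every alternative run. Over 1646 alternative values 156 lost a call, 24 gained one and 12 changed sign, and none of the called ones changed sign. Leaving out 1 library at a time (37 fits), fitting only the groups compared (24 calls lost) and leaving out Y541S placebo 5 moved most, while DESeq2 lost 0 calls and RLE size factors 2. The cause of these changes was not tested.

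Counts among the 7 genes that moved are given beside the count reported above. For WT P4 (0 called) they were 1 with DESeq2, 1 without the later identifier series, 2 without the 3 libraries that stand apart and 1 with only the groups compared. With only the groups compared they were 0 for Y541S E2 (2 with all groups in the fit), 1 for Y541S P4 (4), 1 for Y541S E2+P4 (4), 3 for WT E2+P4 against WT E2 (5), 0 for Y541S against D542G placebo (2), 1 for the P4 response of D542G against WT (0), 0 for the E2 response of Y541S against WT (2) and 1 for the P4 response of Y541S against WT (2). For Y541S E2 they were 1 with RLE, 1 with no filter and 4 without the libraries that stand apart. Without the later series or without the libraries that stand apart they were 1 and 1 for Y541S against D542G placebo and 1 and 1 for the E2 response of Y541S. For the P4 response of Y541S they were 1 with no filter and 1 without the later series. Leaving out 1 library gave 1 to 3 for Y541S E2, 1 to 3 for Y541S P4, 2 to 4 for Y541S E2+P4, 3 to 6 for WT E2+P4 against WT E2, 0 to 2 for D542G against WT placebo, 1 to 2 for Y541S against D542G placebo, 1 to 3 for the E2 and 1 to 2 for the P4 response of Y541S. The count with Stat5a and Stat5b summed was not run.

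Sign changes were all in uncalled values. Leaving out 1 library gave -0.25 to 0.31 for Stat5a in WT E2, -0.13 to 0.14 for Prlr in WT P4, -0.88 to 0.73 for Socs2 in Y541S P4, -0.37 to 0.14 for the E2 response of Socs2 in D542G against WT and -0.71 to 0.069 for the E2+P4 response of Prlr in Y541S against WT. Prlr in WT P4 was -0.042 without the later series and -0.11 without the libraries that stand apart, and Socs2 in Y541S P4 was 0.73 and 0.73.

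Replicate numbers showed no common pairing over all the libraries. Deviations of 178 same-numbered pairs from their group means had r from -0.504 to 0.56, median 0.001, with 16 over 0.1. The highest was between WT placebo 2 and WT P4 2, and the lowest between D542G placebo 2 and WT placebo 2. A pairing or shared batch of single groups was not tested. With the replicate block 8 calls were not made: Ghr in WT E2 (0.66), Stat5b in Y541S E2 (0.53), Stat5a in Y541S P4 (0.74), Jak2 in Y541S E2+P4 (-0.83), Socs2 between Y541S and D542G placebo (1.21), the E2 and P4 responses of Socs2 in Y541S against WT (-1.68 and -1.11) and Stat5b above the WT sum (0.66). It gained 2, Cish in Y541S E2 (1.46) and E2+P4 (1.25). Socs2 in Y541S P4 was 0.15, and the counts among the 7 were 1 for Y541S against D542G placebo, 1 for the E2 and 1 for the P4 response of Y541S. Under the replicate block all-gene counts were 79 for WT P4 (263 without the block), 1126 for Y541S against D542G placebo (2184), 349 for the P4 response of Y541S (1350) and 1331 for the WT sum (2099).

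All-gene counts moved by over 1.5 times as follows. With only the groups compared they were 3139 for WT E2 (5796), 408 for WT P4 (263), 2175 for D542G P4 (3385), 0 for Y541S E2 (857), 1160 for Y541S P4 (2077), 1922 for Y541S E2+P4 (3417), 892 for WT E2+P4 against E2 (3406), 952 for Y541S against WT placebo (2469), 333 for Y541S against D542G placebo, 394 for the E2 (1478) and 933 for the E2+P4 response of Y541S (1599). With DESeq2 they were 755 for WT P4, 1429 for Y541S E2, 669 for D542G against WT placebo (372), 1277 for the P4 (617) and 1429 for the E2+P4 response of D542G (792) and 2134 for the P4 response of Y541S. Without the later series they were 1743 for Y541S E2, 2792 for WT E2+P4 against P4 (4274), 765 for Y541S against D542G placebo, 941 for the E2 and 510 for the P4 response of Y541S. Without the libraries that stand apart they were 523, 1878, 867 and 629 for WT P4, Y541S E2, Y541S against D542G placebo and the P4 response of Y541S. WT P4 had 160 with no filter. Leaving out 1 library gave 1817 to 2440 in D542G E2 (2893), 1723 to 3295 in D542G P4, 299 to 1786 in Y541S E2, 1167 to 2191 in Y541S P4, 2202 to 3657 in Y541S E2+P4, 22 to 384 in WT P4, 2028 to 3715 for WT E2+P4 against E2, 168 to 261 for D542G and 1487 to 2422 for Y541S against WT placebo, 806 to 2445 for Y541S against D542G placebo, 229 to 733 for the P4 and 382 to 1271 for the E2+P4 response of D542G, 909 to 1639 for the E2 and 692 to 1552 for the P4 response of Y541S and 1229 to 2394 for the WT sum.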
